A study of Mus musculus with 4 samples.

Results

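Twist1, Twist2, Hand1, Hand2, Prrx1, Prrx2, Snai1, Snai2, Zeb1 and Zeb2 encode transcription factors of the limb mesenchyme, the loose embryonic connective tissue from which skeleton and tendons form. They were followed in the autopod, the distal limb bud that makes the hand or foot. All probe sets that the platform annotation assigned to exactly 1 of these 10 genes were taken, which gave 26 of the 45101 probe sets on the array. A probe set is a group of short probes against 1 transcript, and its signal is a brightness in arbitrary units. There were 2 Hox13dKO samples, from mouse embryos homozygous for a null allele of Hoxa13 (Hoxa13-/-) and for HoxDdel, a deletion that removes Hoxd11, Hoxd12 and Hoxd13 together. They were set against 2 wild-type samples of the same strain and stage, C57BL/6 at E11.25, counted in days of embryonic life. Each sample was RNA of the dissected region described as expressing Hoxd13, from fore- and hindlimb buds together. Hoxd13 is deleted in Hox13dKO, so its own RNA could not mark the region there. No value can be assigned to 1 limb or 1 cell type. The titles call the samples biological replicates without giving how many embryos went into each.

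As background, TWIST and HAND proteins are basic helix-loop-helix factors that pair with E proteins or with each other and bind the E-box, whose letters are CANNTG. In the mouse limb bud, Hand2 acts in the posterior mesenchyme upstream of Shh, the posterior organising signal, and Twist1 is needed for outgrowth and for the ectodermal ridge to persist. PRRX1 and PRRX2 are paired-related homeodomain factors that mark limb mesenchyme from its start and act together in skeletal patterning. SNAI1, SNAI2, ZEB1 and ZEB2 are zinc finger repressors known for silencing epithelial genes such as Cdh1 when cells leave an epithelium.

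The stretch around a gene's start is where such factors could act, so the promoter windows of 4 genes are shown. They are Prrx1, Snai1 and Hand2, whose signals the comparison turns on, and Prrx2, the close relative of Prrx1. The RefSeq table of build GRCm38.p6 held windows for 7 of the 10 genes, each running from 250 bases before to 50 bases after a start site. Capitals mark the letters AATAAA on either strand (TTTATT where read from the other strand), which occur in sites preferred by HOX13 proteins, and the E-box letters CANNTG, which read the same on both strands. In these windows no match to one pattern overlapped a match to the other. Prrx1 lies at chr1:163313601-163313900 on the minus strand, Prrx2 at chr2:30845117-30845416, Snai1 at chr2:167537945-167538244 and Hand2 at chr8:57320733-57321032, all 3 on the plus strand.
Prrx1: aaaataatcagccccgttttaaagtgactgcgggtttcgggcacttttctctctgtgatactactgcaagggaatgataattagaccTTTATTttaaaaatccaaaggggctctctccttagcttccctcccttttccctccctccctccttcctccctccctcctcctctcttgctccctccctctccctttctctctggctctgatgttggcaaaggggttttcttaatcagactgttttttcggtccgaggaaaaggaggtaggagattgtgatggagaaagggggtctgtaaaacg
Prrx2: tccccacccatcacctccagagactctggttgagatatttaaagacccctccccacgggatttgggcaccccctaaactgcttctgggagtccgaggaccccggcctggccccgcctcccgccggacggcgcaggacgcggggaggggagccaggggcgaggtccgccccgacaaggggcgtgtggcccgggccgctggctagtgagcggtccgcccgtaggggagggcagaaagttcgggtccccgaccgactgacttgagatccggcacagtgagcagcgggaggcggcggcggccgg
Snai1: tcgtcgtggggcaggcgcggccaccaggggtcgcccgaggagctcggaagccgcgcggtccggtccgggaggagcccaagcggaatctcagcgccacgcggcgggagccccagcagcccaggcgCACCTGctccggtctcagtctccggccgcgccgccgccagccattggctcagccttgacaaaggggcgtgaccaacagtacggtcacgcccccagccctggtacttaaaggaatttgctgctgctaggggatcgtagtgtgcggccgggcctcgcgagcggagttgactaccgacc
Hand2: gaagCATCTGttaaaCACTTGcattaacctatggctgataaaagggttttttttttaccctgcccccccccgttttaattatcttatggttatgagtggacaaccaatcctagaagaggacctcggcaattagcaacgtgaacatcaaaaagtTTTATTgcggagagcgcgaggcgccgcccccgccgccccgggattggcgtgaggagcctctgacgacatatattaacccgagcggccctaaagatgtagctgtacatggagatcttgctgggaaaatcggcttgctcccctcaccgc
The Prrx1 window held 1 match to AATAAA, which began 163 bases before the start, and the Hand2 window held 1, which began 97 bases before it. The Prrx2 and Snai1 windows held 0 matches to these letters. Over all 32851 promoter windows 19.6% held at least 1. The Hand2 window also held 2 E-boxes and the Snai1 window 1. That of Snai1 was CACCTG, which reads CAGGTG on the other strand, the E-box form that Snail proteins bind. E-boxes were found in 72.3% of all windows and the form CAGGTG or CACCTG in 20.2%. The windows of Prrx2, Twist1 and Twist2 and the 4 of Zeb2 held 0 matches to either pattern. Such matches are descriptions of letters and show no binding.

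The arrays themselves shared a trimmed mean and differed in a few ways that touch these genes. All 4 had a trimmed mean signal of 500.003, while the median signal was 66.1 and 81.2 in Hox13dKO, against 65.8 and 85.7 in wild type. Log2 signals correlated with r between 0.948 and 0.965 for every pair of arrays. The highest r, 0.9651, was that of Hox13dKO replicate 1 with wild type replicate 1. Within groups r was 0.9586 for Hox13dKO and 0.9555 for wild type. Hoxd13, which the dissected region is defined by, read 5.79 and 9.58 in Hox13dKO, against 14540 and 16116 in wild type, at least 1085-fold lower against the floor of 14.1 units (limma adjusted p = 6.41e-07). Hoxa13 was 20.1-fold lower (adjusted p = 0.00423). Hoxd11, which the deletion is labelled as removing, still read 348 and 454 in Hox13dKO, above the floor, against 1831 and 1745 in wild type, 4.50-fold lower (adjusted p = 0.00778). Whether its probes lie within the deleted part is not shown by the tables used here. The 11 limb mesenchyme markers were all on the array and none was below the floor on every array. By brightest probe sets, 2 fell and 0 rose in limma, beside 0.145% and 0.161% of all genes. These 2, Hoxd13 and Hoxa13, are altered in Hox13dKO, so their fall says nothing of the other markers. At an unadjusted p of 0.05, Tbx5 was higher (log2 difference 1.02 ± 0.32 SE; adjusted p = 0.540). Lhx2 was lower (-0.47 ± 0.17; adjusted p = 0.674), as were these 2. The ratio of 5' to 3' actin signal, a sign of RNA quality, was 0.728 and 0.771 in Hox13dKO, against 0.473 and 0.764 in wild type. The summed signal of 10 muscle markers was 2116 and 4431 in Hox13dKO, against 901 to 986 in wild type, and its part in the results below was not tested.

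Of the 26 probe sets, 21 were bright enough to be tested and 5 were not, and each of the 10 genes kept at least 1 tested probe set. None of the 21 passed an adjusted p of 0.05 in limma, which fits all probe sets together and adjusts over all 27022 tested. On the whole array 56 probe sets (0.207%) passed, 31 higher (0.115%) and 25 lower (0.0925%). That count was 20 or 11 with the first or second Hox13dKO array left out, and 306 or 525 with the first or second wild-type array left out. At an unadjusted p of 0.05, 7 of the 21 passed, 6 higher in Hox13dKO and 1 lower, where 6.26% of all probe sets did (3.80% higher, 2.46% lower). Of these 7, 5 belonged to Prrx1, 1 to Snai1 and 1 to Snai2. Both Hox13dKO arrays lay above both wild-type arrays in 9 of the 21, and below them in 4, so 13 did not overlap. Of all probe sets 34.6% did not overlap, 16.3% higher and 18.3% lower. The median log2 difference, Hox13dKO minus wild type, was 0.17 over the 21 and -0.01 over all probe sets. Prrx1 alone contributes 5 probe sets of 1 transcript pool, which are not independent of each other. By the brightest probe set of each gene, the median of the 10 was 0.13 against -0.03 over 13072 genes, and 2 of 10 had an unadjusted p under 0.05, where 7.25% of genes did. By the same probe sets 6 of the 10 did not overlap, 4 higher and 2 lower, against 37.2% of all genes (17.1% higher, 20.1% lower).

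**Figure D1:**
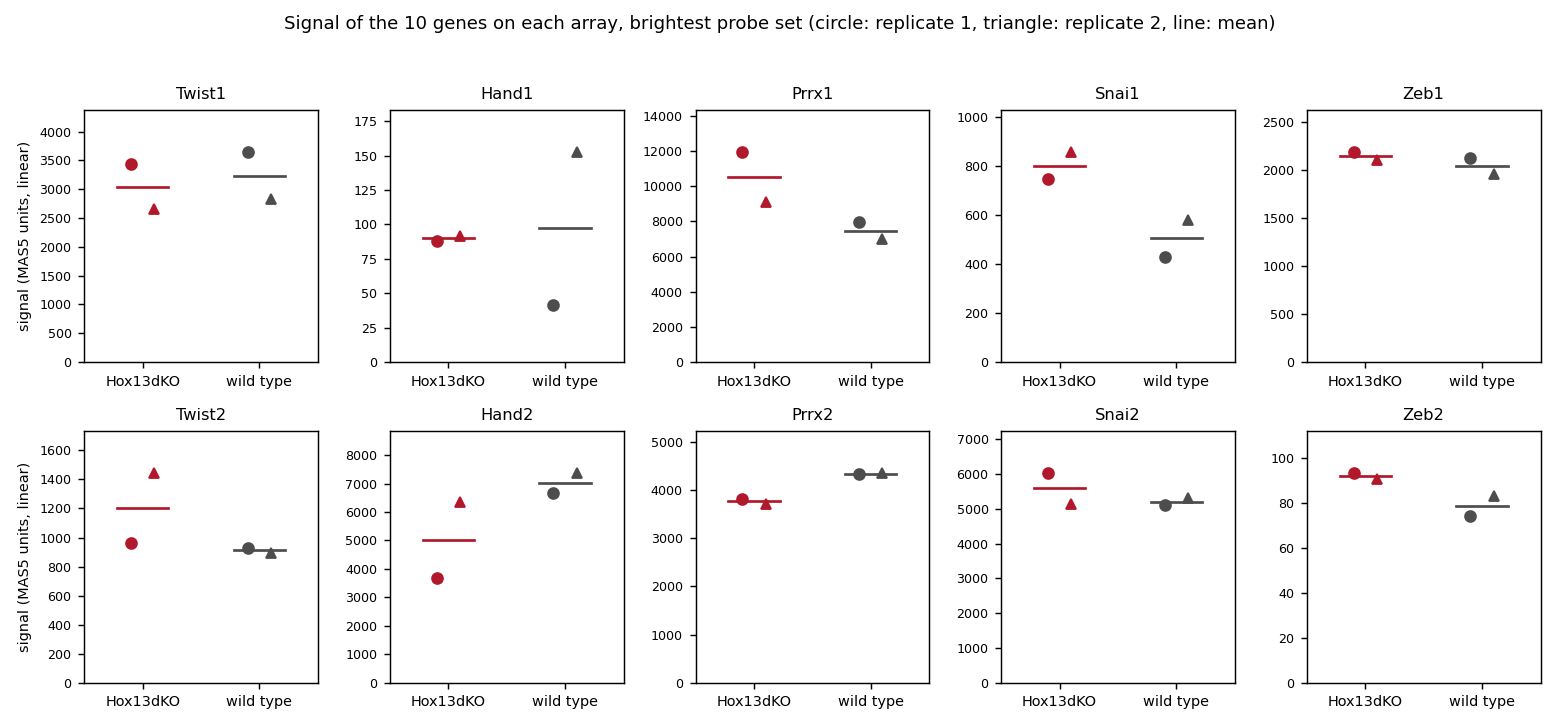
Signal in MAS5 units (linear, vertical axis from 0 in each panel) of the brightest probe set of each of the 10 genes in the Hox13dKO and wild-type arrays; circles are replicate 1, triangles replicate 2 and lines the mean of 2 arrays. Prrx1, Snai1, Twist2 and Zeb2 sit higher on both Hox13dKO arrays than on both wild-type arrays, Hand2 and Prrx2 sit lower, and for Twist1, Hand1, Snai2 and Zeb1 the groups overlap. Panels have their own scales and their levels cannot be compared.

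Prrx1, the homeobox gene whose regulatory sequence is widely used to mark limb mesenchyme, gave the clearest separation among the 10 genes. Its brightest probe set, 1425528_at, read 11938 and 9125 in Hox13dKO, against 7952 and 7008 in wild type, a log2 difference of 0.48 ± 0.16 (SE, n = 2 each; limma adjusted p = 0.589). The probe set with the lowest p, 1432129_a_at, read 1471 and 1577 in Hox13dKO, against 788 and 755 in wild type, 1.97-fold higher (0.98 ± 0.15; adjusted p = 0.0727). In both, the groups did not overlap, and in the second the arrays within each group lay within 1.07-fold of each other.

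The other three tested Prrx1 probe sets ran the same way. Probe set 1439774_at read 3219 and 3035 in Hox13dKO, against 1810 and 1170 in wild type, 2.15-fold higher (1.10 ± 0.21; adjusted p = 0.129). Probe set 1425526_a_at read 961 and 977, against 449 and 531 in wild type, 1.98-fold higher (adjusted p = 0.119), and 1425527_at read 1888 and 1709, against 1090 and 1141 in wild type, 1.61-fold higher (adjusted p = 0.202). All 5 thus had both Hox13dKO arrays above both wild-type arrays, with folds from 1.40 to 2.15. By p they held ranks 75, 137, 142, 211 and 778 among the 27022 probe sets. In bulk tissue, more or fewer cells of a type and more or less RNA per cell cannot be told apart. A sixth probe set, 1458004_at, was too dim to test, at 22.1 and 29.4 in Hox13dKO against 25.7 and 3.34 in wild type.

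The fold of Prrx1 differed between its probe sets, and the brightest had the smallest. Which transcript forms each probe set reads is not given in the tables used here, so the range cannot be divided between isoforms and probe behaviour. The 95% intervals of the log2 difference, not adjusted for the number of probe sets, ran from 0.11 to 0.85 for 1425528_at and from 0.63 to 1.33 for 1432129_a_at. By the mean over all 6 probe sets the gene differed by 0.78 ± 0.15 (adjusted p = 0.110 over genes). The call changed when either wild-type array was left out. Without wild type replicate 1, 2 Prrx1 probe sets passed, 1439774_at (1.42, adjusted p = 4.86e-05) and 1432129_a_at (1.01, adjusted p = 0.0103). Without wild type replicate 2, 3 passed, 1425526_a_at (1.11, adjusted p = 0.00803), 1432129_a_at (0.95, adjusted p = 0.0142) and 1439774_at (0.79, adjusted p = 0.0302). Without either Hox13dKO array none passed. These fits take the spread of a group left with 1 array from the other group.

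**Figure D2:**
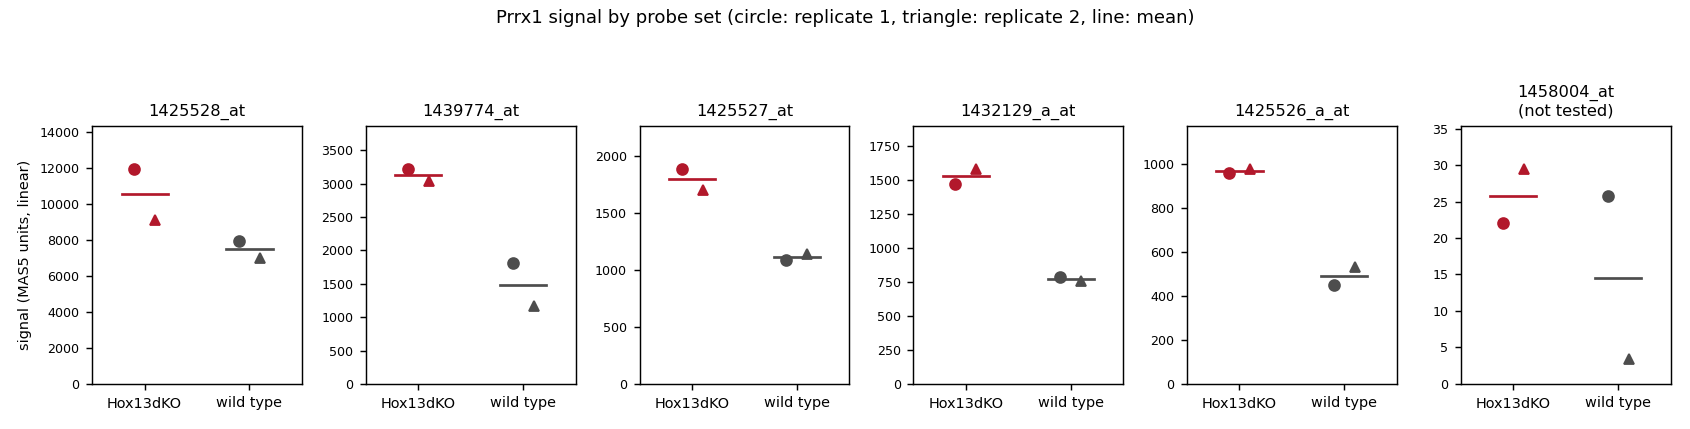
Prrx1 signal in MAS5 units (linear, from 0) for each of its 6 probe sets in Hox13dKO and wild type; circles are replicate 1, triangles replicate 2 and lines the mean of 2 arrays. In the 5 tested probe sets both Hox13dKO arrays lie above both wild-type arrays, and in the dim probe set at the right the groups overlap.

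Prrx2, the paralogue that overlaps Prrx1 in function, was slightly lower in Hox13dKO. Its single probe set read 3817 and 3713 in Hox13dKO, against 4328 and 4355 in wild type, a log2 difference of -0.21 ± 0.12 (SE; adjusted p = 0.900). The arrays of a group lay within 1.03-fold of each other and the groups did not overlap, yet the 95% interval, -0.49 to 0.08, spans 0. The log2 ratio of Prrx1 to Prrx2 signal within an array, by brightest probe sets, was 1.65 and 1.30 in Hox13dKO, against 0.88 and 0.69 in wild type. The ratio was thus 1.61-fold higher in Hox13dKO and the groups did not overlap (exact two-sided permutation p = 0.333, the smallest that 2 against 2 arrays allow, and 0.556 adjusted over 5 such ratios). The Twist1 to Twist2 and Hand1 to Hand2 ratios overlapped between groups (both exact permutation p = 0.667), and Zeb1 to Zeb2 differed by -0.15 on the log2 scale (exact permutation p = 0.333).

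Snai1, which codes for the Snail repressor, had the lowest unadjusted p of the 10 brightest probe sets. It read 746 and 857 in Hox13dKO, against 430 and 582 in wild type, 1.60-fold higher (log2 difference 0.68 ± 0.21 SE; adjusted p = 0.540). Both Hox13dKO arrays lay above both wild-type arrays, and the difference ranged from 0.46 to 0.89 with single arrays left out. Its 95% interval, not adjusted, was 0.19 to 1.17.

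The probe sets of Snai2, which codes for the related repressor Slug, did not run together. The brighter one, 1447643_x_at, whose name marks probes that may bind other transcripts as well, read 6029 and 5146 in Hox13dKO, against 5111 and 5307 in wild type (0.10 ± 0.14 SE; adjusted p = 0.968). The other, 1418673_at, read 1063 and 1030 in Hox13dKO, against 1382 and 1406 in wild type, 1.33-fold lower (-0.41 ± 0.15; unadjusted p = 0.0228, adjusted p = 0.651). Groups overlapped in the first, whose difference was -0.02 without Hox13dKO replicate 1, and were apart in the second by more than the gap between its replicates. The log2 ratio of Snai1 to Snai2 by brightest probe sets was -3.01 and -2.59 in Hox13dKO, against -3.57 and -3.19 in wild type (exact permutation p = 0.333).

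Hand2, the posterior helix-loop-helix gene, read lower in Hox13dKO by all 3 probe sets, and mainly on 1 array. Probe set 1436041_at read 3683 and 6365 in Hox13dKO, against 6660 and 7370 in wild type, 1.45-fold lower by the fit (-0.53 ± 0.23 SE; adjusted p = 0.807). Probe set 1422221_at read 348 and 831 in Hox13dKO, against 728 and 899 in wild type (-0.59 ± 0.37; adjusted p = 0.900), and 1443854_at read 60.5 and 327 in Hox13dKO, against 128 and 296 in wild type (-0.47 ± 0.75; adjusted p = 0.972). Hox13dKO replicate 1 was the lowest array in each. Without it the 3 differences were -0.14, 0.04 and 0.74, and without Hox13dKO replicate 2 they were -0.93, -1.22 and -1.69. The third was also positive, at 0.13, without wild type replicate 2.

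Among limb genes downstream of Twist1 and Hand2, Shh, Tbx2 and Gli1 were also lowest on Hox13dKO replicate 1 by brightest probe sets. So was Grem1, with 207 and 413 in Hox13dKO, against 213 and 243 in wild type, with overlap. Fgf10 was lowest there by little, at 82.1 against 82.2 on wild type replicate 2. Others, such as Tbx3 and Ptch1, were not. Shh, the posterior signal, read 381 and 1054 in Hox13dKO, against 1941 and 1289 in wild type (-1.32 ± 0.42 SE; adjusted p = 0.551). A dimmer Shh probe set read 12.8 and 129 in Hox13dKO, against 72.6 and 47.1 in wild type, with overlap. Tbx2, a T-box gene of the bud margins, read 177 and 441 in Hox13dKO, against 670 and 692 in wild type (-1.29 ± 0.39; adjusted p = 0.488). In both genes, by the brightest probe set, each Hox13dKO array lay below each wild-type array. Tbx3, a close relative of Tbx2, ran the other way, with 469 and 634 in Hox13dKO, against 356 and 264 in wild type (0.83 ± 0.26; adjusted p = 0.525). Ptch1, the Shh receptor gene, was lowest on Hox13dKO replicate 2, with 3678 and 3309 in Hox13dKO, against 5501 and 4168 in wild type (-0.46 ± 0.16; adjusted p = 0.653). Shh, Tbx3, Ptch1, Grem1 and Fgf10 were named here after their values were seen. Shh passed without wild type replicate 2 (-1.61, adjusted p = 0.00349), and in no other fit that left out 1 array. Tbx2 passed in none of these 4 fits.

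Hand1, the Hand2 paralogue known mainly from heart and placenta, was dim. Probe set 1417525_at read 87.8 and 91.7 in Hox13dKO, against 41.7 and 152 in wild type, so that the wild-type arrays enclosed the Hox13dKO ones (0.17 ± 0.65 SE; adjusted p = 0.983). Its direction turned to -0.76 without wild type replicate 1. Probe set 1448750_at read 10.4 and 67.9 in Hox13dKO, against 11.6 and 28.7 in wild type, and was not tested. With an interval from -1.32 to 1.66 on the log2 scale, a difference of Hand1 within that range, in either direction, could not be told from none.

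The Twist genes gave small differences. Twist1, needed in mouse limb mesenchyme for outgrowth, read 3441 and 2651 in Hox13dKO, against 3644 and 2827 in wild type (-0.09 ± 0.18 SE; adjusted p = 0.978). The groups overlapped, replicate 1 was the higher array in each, and the 95% interval ran from -0.51 to 0.33. The sign of the Twist1 difference depended on the arrays kept, being 0.10 with Hox13dKO replicate 2 left out and also 0.10 with wild type replicate 1 left out. Twist2, a close relative known from dermis and connective tissue, read 964 and 1444 in Hox13dKO, against 929 and 894 in wild type (0.37 ± 0.21; adjusted p = 0.893). The Hox13dKO arrays lay above the wild-type arrays, but replicate 1 by a small gap, and without Hox13dKO replicate 2 the difference was 0.08.

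Zeb1, a zinc finger homeodomain repressor, had 1 bright probe set with little difference. It read 2188 and 2108 in Hox13dKO, against 2122 and 1957 in wild type (0.08 ± 0.14 SE; adjusted p = 0.974), with a 95% interval from -0.24 to 0.39. A dimmer one, 1443005_at, read 108 and 139 in Hox13dKO, against 149 and 272 in wild type (-0.71 ± 0.40; adjusted p = 0.893), so the probe sets of Zeb1 did not run together. The remaining pair, 1420243_at and 1446127_at, stayed at or below 49.7 units on all 4 arrays and was not tested.

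Zeb2, its relative, was dim throughout. Its brightest probe set, 1456389_at, read 93.3 and 90.5 in Hox13dKO, against 74.2 and 83.2 in wild type (0.23 ± 0.45 SE; adjusted p = 0.978), and 1434298_at read 94.2 and 95.5 in Hox13dKO, against 51.0 and 60.8 in wild type (0.77 ± 0.49; adjusted p = 0.907). In both the Hox13dKO arrays were the higher ones. Of the other two tested, 1458941_at differed by -0.74 ± 0.60 and 1422748_at by 0.51 ± 0.95, and in both the groups overlapped. The difference of 1422748_at was -0.74 without wild type replicate 1, on which it read 3.36. The fifth, 1454200_at, was below the floor on 3 arrays and was not tested.

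**Figure D3:**
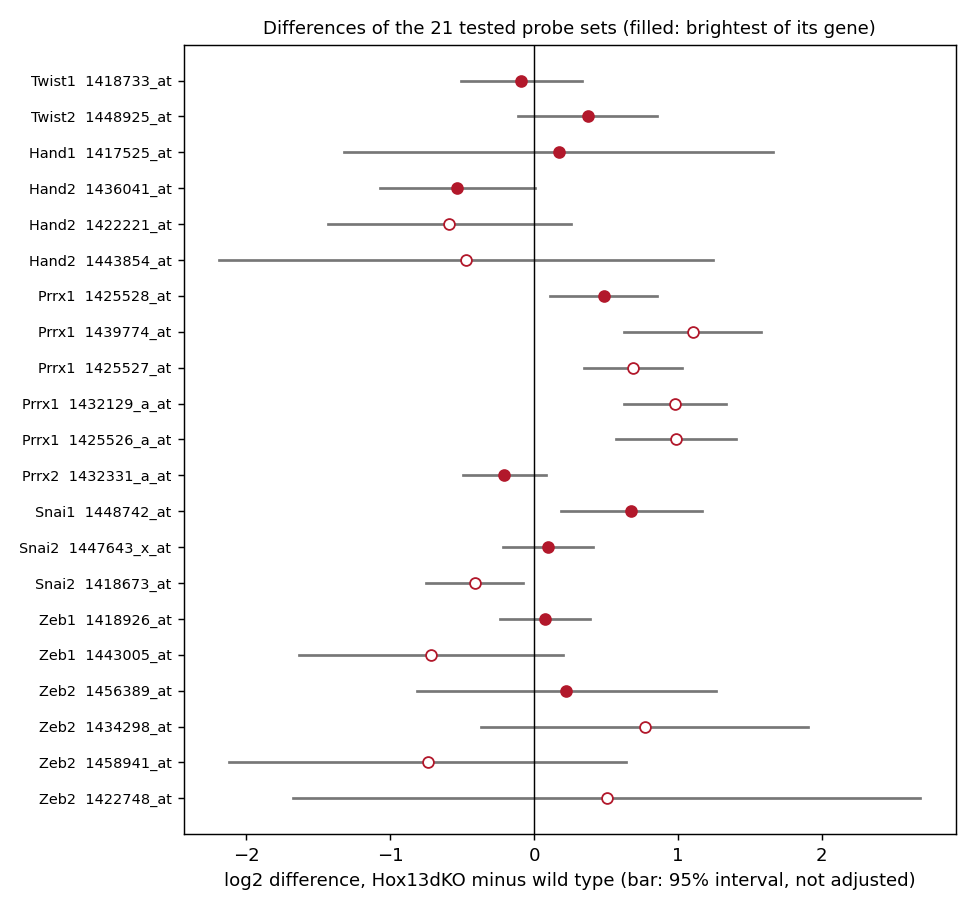
Log2 difference in signal, Hox13dKO minus wild type, of the 21 tested probe sets of the 10 genes; points are limma estimates, filled for the brightest probe set of a gene, and bars are 95% intervals that are not adjusted for the number of probe sets. The 5 Prrx1 probe sets lie between 0.48 and 1.10, Hand2 lies below 0 with intervals that reach past it, and the widest intervals are those of Zeb2 1422748_at, Hand2 1443854_at and Hand1 1417525_at.

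The gap between replicates differed widely among the 10 genes. In Prrx2 and in Snai2 by 1418673_at, replicates of a group lay within 1.03-fold. The groups differed by 1.15-fold and 1.33-fold by the fit and did not overlap. In Hand2, Hox13dKO replicates differed by 1.73-fold, 2.39-fold and 5.40-fold over its probe sets, and in Hand1 wild-type replicates differed by 3.66-fold. The plot of differences with arrays left out shows the same contrast between Prrx1 and Hand2.

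**Figure D4:**
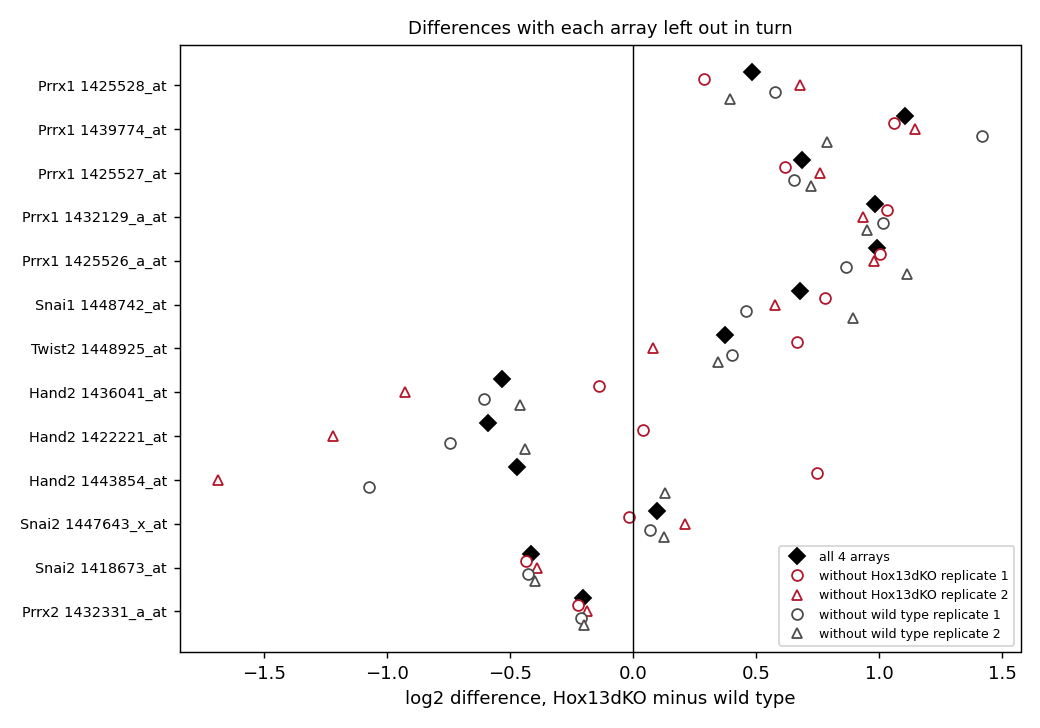
Log2 difference, Hox13dKO minus wild type, of 13 probe sets of 6 genes with all 4 arrays and with each array left out in turn, each case with its own symbol. The 5 Prrx1 probe sets and Snai1 stay above 0 in every case, between 0.29 and 1.42 for Prrx1, whereas the Hand2 values spread from -1.69 to 0.74.

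Partners and relatives of the 10 genes were read from gene lists by the brightest probe set of each gene, beside 0.306% of all 13072 genes past an adjusted p of 0.05. The list genes that rose, namely Shox2, Col1a2, Col3a1 and Actc1, passed neither with no filter on dim probe sets (adjusted p from 0.321 to 0.483) nor without the intensity trend (from 0.591 to 0.601). Of 7 E protein and Id genes, which set how many helix-loop-helix dimers can form, 0 passed in limma. An unadjusted p under 0.05 was met by 2 of them, beside 7.25% of all genes. Both were Id genes, whose proteins sequester E proteins. The Id genes did not run together, as Id3 and Id1 differed by -0.37 and -0.31 (limma adjusted p = 0.822 and 0.900). Id2 read 6807 and 5192 in Hox13dKO, against 4409 and 3910 in wild type (0.52 ± 0.16 SE; adjusted p = 0.540), and Id4 differed by 0.78 ± 0.26 (adjusted p = 0.601). Id4 passed without wild type replicate 2 (1.14, adjusted p = 0.00893). The E protein genes Tcf3, Tcf4 and Tcf12 differed by 0.01, -0.14 and 0.18, and the list median was 0.01, or -0.06 without Hox13dKO replicate 2.

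By brightest probe sets, the 8 corepressor partners of Snai and Zeb proteins showed the narrowest spread. None passed at an adjusted or unadjusted p of 0.05 in limma, and the median was -0.06, against -0.03 over all genes. The lowest p was that of Hdac1, a histone deacetylase gene, at -0.12 ± 0.12 (SE). Their summed signal was 42994 to 43212 in Hox13dKO, against 44264 to 44492 in wild type.

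Among 14 family relatives, 12 were on the array and 7 were tested. Shox2, a homeobox gene of the proximal limb, rose 3.28-fold by the fit, with 3835 and 4835 in Hox13dKO, against 1658 and 1038 in wild type (1.71 ± 0.23 SE; adjusted p = 0.0432). It did not pass without Hox13dKO replicate 1 (adjusted p = 0.172) or Hox13dKO replicate 2 (adjusted p = 0.333). Tcf15, a helix-loop-helix gene of somites, differed by 0.87 ± 0.36 (adjusted p = 0.764), and the median of the 7 was 0.16, or -0.48 without Hox13dKO replicate 2.

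Limb genes downstream of Twist1 and Hand2 differed in both directions. Of 14 tested, 0 passed in limma, and at an unadjusted p of 0.05 there were 5 higher and 4 lower, beside 4.26% and 2.99% of all genes. Gli1, a readout of Shh signalling, read 294 and 336 in Hox13dKO, against 640 and 540 in wild type (-0.90 ± 0.22 SE; adjusted p = 0.272). Fgf4, a ridge signal whose probe set name marks possible binding of other transcripts, read 215 and 196 in Hox13dKO, against 46.1 and 76.9 in wild type (1.79 ± 0.43; adjusted p = 0.275), and Fgf8, the main ridge signal, differed by 0.83 ± 0.22 (adjusted p = 0.336). Fgf4 passed without wild type replicate 2 (2.16, adjusted p = 0.0142) and after median centring (adjusted p = 0.0137). Gli3, known for mutual antagonism with Hand2 in the mouse limb bud, differed by 0.52 ± 0.19 and was named after its values were seen. The list median was 0.01, or -0.18 without Hox13dKO replicate 2.

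Mesenchymal genes tied to Twist, Snai and Zeb in other settings were higher as a list by count. Of 14, all tested, 2 rose in limma and 0 fell. At an unadjusted p under 0.05 there were 6, all higher, beside 4.26% of all genes. The median log2 difference was 0.54, against -0.03 over all genes. Col1a2, a chain of type I collagen, rose 2.12-fold, with 12596 and 10973 in Hox13dKO, against 5251 and 5843 in wild type (1.09 ± 0.14 SE; adjusted p = 0.0348). Col3a1, the type III collagen gene, rose 1.95-fold (0.96 ± 0.13; adjusted p = 0.0457). Col3a1 did not pass after median centring (adjusted p = 0.0566). Neither passed without Hox13dKO replicate 1 (adjusted p = 0.245 and 0.202) or Hox13dKO replicate 2 (adjusted p = 0.163 and 0.363). Col1a1, the partner chain of Col1a2, differed by 1.16 ± 0.18 (adjusted p = 0.0717, and 0.00470 or 0.00220 with a wild-type array left out) and Cdh2, a mesenchymal cadherin, by 0.52 ± 0.14 (adjusted p = 0.386). Vim and Fn1, common mesenchymal markers named for that reason, differed by 0.07 and 0.01 by their brightest probe sets. A dimmer Fn1 probe set read 226 and 277 in Hox13dKO, against 87.8 and 162 in wild type (1.07 ± 0.39; adjusted p = 0.657). Its groups did not overlap, so the probe sets of Fn1 did not run together. Other Vim probe sets differed by 0.03 and -0.02, with overlap. Without wild type replicate 1, 5 of the list passed, and without wild type replicate 2, 4 did.

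Epithelial genes that Snai and Zeb factors repress in other settings also mark the ectoderm that covers the bud. Of 16, all tested, 0 passed in limma, 1 had an unadjusted p under 0.05, beside 7.25% of all genes, and the median was 0.16. That median was -0.16 with Hox13dKO replicate 2 left out and -0.08 with wild type replicate 2 left out. That 1 was Krt8, a keratin of simple epithelia, which read 376 and 446 in Hox13dKO, against 575 and 679 in wild type (-0.61 ± 0.21 SE; adjusted p = 0.611). Other Krt8 probe sets differed by -0.18 and 0.44, with overlap. Cdh1, the defining cadherin, read 1143 and 1250 in Hox13dKO, against 1323 and 695 in wild type, with overlap. Their summed signal was 7797 to 9305 in Hox13dKO, against 7284 to 8861 in wild type.

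Markers of other cell types in the bud moved in part with the groups. Of 10 muscle markers, 1 rose in limma and 6 had an unadjusted p under 0.05, all higher, beside 4.26% of all genes. Their median was 1.27, against -0.03 over all genes. Actc1, an early muscle actin, read 880 and 2252 in Hox13dKO, against 116 and 92.7 in wild type (3.76 ± 0.41 SE; adjusted p = 0.0182), and did not pass without Hox13dKO replicate 2 (3.08, adjusted p = 0.119). Of 8 endothelial markers 0 passed, with a median of 0.34 and sums of 3541 to 4518 in Hox13dKO, against 2969 to 3339 in wild type, led by Cdh5, the endothelial cadherin (0.77 ± 0.22). Of 6 macrophage markers tested 0 passed (median 0.36), led by Mrc1 (1.30 ± 0.24; adjusted p = 0.119). The Mrc1 difference ran from 1.21 to 1.39 with single arrays left out. The other tested markers ran from -0.07 for Ptprc and -0.03 for Csf1r to 0.57 for Tyrobp. The 6 erythroid markers on the array had 0 past and a median of 0.23, led by Alas2 (1.13 ± 0.32; adjusted p = 0.430). Its difference ran from 0.72 to 1.54 with single arrays left out. The 4 nerve and Schwann precursor markers tested had 0 past and a median of -0.45, or 0.18 over 5 with no filter. Stmn2 (-1.08 ± 0.26; adjusted p = 0.268) and Tubb3 (-1.29 ± 0.37; adjusted p = 0.437) were lower. Erbb3 was higher without overlap (0.42 ± 0.22; adjusted p = 0.877), and Sox10 differed by 0.18 ± 0.52, with overlap. Of 9 ectoderm markers tested 0 passed, with a median of 0.20, which was -0.02 with Hox13dKO replicate 1 left out and -0.13 with wild type replicate 1 left out. None of these markers was below the floor on every array, and their part in the differences of the 10 genes was not tested.

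Genes with the most similar profile over the 4 arrays were found by the Euclidean distance between centred log2 signals, over 13071 other genes. For Snai1, the gene with the lowest p by brightest probe set, they were Styk1, Zfp558, Ccdc80, Slc2a4rg-ps and Crebrf, at distances of 0.04 to 0.09. For Hand1, with the highest p, they were Hoxb6, Pilrb1, Fbxw19, A1cf and Il15ra, at 0.14 to 0.19. For Prrx1, added after its values were seen, they were Id2, Marchf9, Particl, Cited2 and Npr3, at 0.04 to 0.07. With 4 arrays many genes share any profile, so the likeness is a description of these arrays.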

How the data were processed

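The authors deposited 1 intensity per probe set and array on a linear scale, made with MAS5 per the submitters' processing notes, which name no version. Detection calls and scanner data were not used here. With 2 arrays a group, array number sets the precision. Of 45101 probe sets, the platform annotation gave 34958 a single symbol, 932 more than 1 and 9211 no symbol; 64 control probe sets were left out. Signals below the 20th percentile, 14.1 units, were set to that floor before taking log2. Probe sets whose mean log2 signal was at least the 40th percentile, which is 39.6 units, were tested, 27022 in all, in limma 3.58.1 (R 4.3.3; lmFit, eBayes with trend; two-sided p-values), and p was adjusted by Benjamini-Hochberg across this whole set. Folds are 2 to the power of the fitted log2 difference. The fit had 2 residual and 6.05 prior degrees of freedom. The steps were tested on simulated arrays. Values are per array; SDs are not given where both arrays are printed.

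The 10 genes and the gene lists (partners, relatives, downstream genes and cell type markers) were chosen with earlier results of these data known. Named genes are the 10 with all probe sets and, from the lists, those past the threshold or with up to 4 of the lowest p-values. Vim, Fn1, Cdh1, the E protein genes, Shh, Tbx3, Ptch1, Gli3, Grem1 and Fgf10 were added outside this rule. Promoter windows are RefSeq's. Figures were drawn with matplotlib 3.10.9. Alternatives covered normalization, floor, pseudocount, filter, variance model, replicate block, probe set choice, threshold and leaving out each array.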

Additional observations from a re-analysis of the deposited data

How the results depend on the processing

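Over 303 values of the 21 tested probe sets under the alternatives, 283 kept their direction and their side of the threshold, 10 passed where the value with all 4 arrays did not, and 10 turned direction. All 10 that passed were Prrx1 probe sets. The count of Twist, Hand, Prrx, Snai and Zeb probe sets past the threshold was 0, and 5 with the replicate number as a block, 1 at an adjusted p of 0.10, and 0 to 3 with single arrays left out. With that block the gene lists gave 5 calls among mesenchymal genes, 3 among muscle markers, 2 among downstream limb genes, 3 among limb mesenchyme markers, and 1 each among E protein and Id genes, relatives, ectoderm, macrophage and nerve markers. The count over the whole array was 56, and 214 after median centring, 0 with no filter (3159 at an unadjusted p of 0.05), 1 without the intensity trend, 418 with the replicate block, 95 with 1 probe set per gene, 111 at an adjusted p of 0.10, and 11 to 525 with single arrays left out. The cause of these shifts was not tested. Samples of the 2 groups share only replicate numbers, with 2 pairs; deviations of same-numbered arrays correlated at 0.198 over 27022 probe sets.

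With single arrays left out, the differences ranged from -0.28 to 0.10 for Twist1, from -0.76 to 1.11 for Hand1, from -1.22 to 0.039 and from -1.69 to 0.74 for Hand2 1422221_at and 1443854_at, from -0.017 to 0.21 for Snai2 1447643_x_at, from -0.74 to 1.75 for Zeb2 1422748_at, from -0.070 to 0.20 for Vim and from -0.15 to 0.78 for Cdh1. By the mean over all probe sets of a gene, Snai2 differed by -0.16 and Zeb1 by -0.44, where their brightest probe sets differed by 0.10 and 0.08. Dim probe sets limit what can be said of Hand1 and Zeb2.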
